A study of Mus musculus with 21 samples.

Results

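The 10 genes described here were chosen as genes known from blood endothelium or from the growth of new vessels: Pecam1, Cdh5, Kdr, Vegfa, Angpt2, Apln, Aplnr, Esm1, Dll4 and Sox17. They were taken by symbol from the 24062 genes of the deposited count table, and all 10 were found and passed the filter on low counts. They were selected on their known roles and with the fold changes between these groups in view, so their differences between groups are given as a description, and the calls of the fit on them are not offered as independent evidence.

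The study asked how colon tumours form in mice that carry App NL-G-F, a knock-in that places familial Alzheimer's disease mutations in the amyloid precursor protein. All mice were C57BL/6, and their ages are not given in the labels. Tumours are labelled AOM/DSS, for azoxymethane, a carcinogen, followed by dextran sulfate sodium, which inflames the colon. Normal colon is labelled as not treated, while the design text speaks of normal tissue beside tumours or from mice in which no tumour formed. The 7 groups of 3 libraries were, in wild-type mice, normal colon and tumours of each sex, and, in knock-in mice, tumours of males and normal colon of each sex. The libraries of the knock-in females are called 1, a and b because 2 of them share a column name. Knock-in female tumours were not analysed here. The labels do not say that the libraries of a group came from separate animals, so the spread between libraries may be partly technical.

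Endothelial cells line vessels and are held together by the adhesion proteins encoded by Pecam1 and Cdh5. VEGF-A, made by many cell types and induced by hypoxia, signals through the receptor encoded by Kdr and sets off sprouting. At the front of a sprout, tip cells express the Notch ligand gene Dll4, the secreted proteoglycan gene Esm1, the peptide gene Apln and the Tie2 antagonist gene Angpt2. Apelin acts on the receptor encoded by Aplnr, which is found on veins and growing vessels, and Sox17 is a transcription factor of arterial endothelium that is also known from endoderm.

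Promoter sequence is shown for a pair of genes that were higher in tumours of every background, Apln and Esm1, and for a pair that passed the threshold in no comparison, Dll4 and Vegfa. RefSeq promoter windows of GRCm38.p6, the assembly also called mm10, were matched for 5 of the 10 genes. The 250 bases before the start are printed 5′ to 3′ on the gene's strand, and capitals mark the ETS core, GGAA or TTCC on the printed strand, the letters that endothelial ETS factors such as Erg and Fli1 bind. They lie at chrX:48034854-48035103 (minus strand) for Apln, chr13:113209409-113209658 (plus strand) for Esm1, chr2:119325534-119325783 (plus strand) for Dll4 and chr17:46032378-46032627 (minus strand) for the first of 2 Vegfa starts.
Apln promoter: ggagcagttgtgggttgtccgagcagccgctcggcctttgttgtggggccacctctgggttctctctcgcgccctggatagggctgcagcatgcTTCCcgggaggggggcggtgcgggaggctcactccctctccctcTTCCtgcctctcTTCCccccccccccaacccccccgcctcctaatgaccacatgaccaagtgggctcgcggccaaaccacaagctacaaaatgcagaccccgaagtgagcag
Esm1 promoter: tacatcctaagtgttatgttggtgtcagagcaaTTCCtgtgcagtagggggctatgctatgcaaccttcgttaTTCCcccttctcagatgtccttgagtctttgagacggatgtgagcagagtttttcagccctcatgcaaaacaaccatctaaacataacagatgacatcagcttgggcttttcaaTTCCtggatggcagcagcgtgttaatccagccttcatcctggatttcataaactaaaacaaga
Dll4 promoter: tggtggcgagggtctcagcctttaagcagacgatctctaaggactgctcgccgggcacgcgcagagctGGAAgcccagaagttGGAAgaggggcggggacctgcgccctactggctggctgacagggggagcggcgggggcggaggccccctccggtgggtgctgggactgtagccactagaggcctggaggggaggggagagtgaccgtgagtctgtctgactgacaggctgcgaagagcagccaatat
Vegfa promoter: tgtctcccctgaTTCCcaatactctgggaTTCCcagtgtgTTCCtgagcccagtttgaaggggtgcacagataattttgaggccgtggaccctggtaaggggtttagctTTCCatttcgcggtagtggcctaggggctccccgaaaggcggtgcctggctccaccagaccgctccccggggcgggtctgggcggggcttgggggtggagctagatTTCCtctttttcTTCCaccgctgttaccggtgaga
The printed windows held 3 ETS cores for Apln, 3 for Esm1, 2 for Dll4 and 6 for Vegfa. Over the same 250 bases before the start, 93.4% of 32851 RefSeq promoters held the core on either strand, so its presence does not set these genes apart. The Sox core ATTGT, searched on both strands, was in none of these stretches of the 5 genes and in 27.7% of all promoters. The hypoxia core ACGTG, also searched on both strands, was in that before the second Vegfa start and in 16.6% of all promoters.

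In GENCODE models on GRCm38, the tip cell genes lie apart from each other: Apln spans chrX:48025146-48034853, Esm1 chr13:113209659-113218098, Angpt2 chr8:18690263-18741562 and Dll4 chr2:119325784-119335962. Sox17 spans chr1:4490931-4497354, Vegfa chr17:46016993-46032369, Kdr chr5:75932827-75978458, Pecam1 chr11:106654217-106750628, Cdh5 chr8:104101625-104144511 and Aplnr chr2:85136225-85139923. Exons of 2 of the 10 overlap a gene on the opposite strand, Sox17 with Gm37587 over 804 bases and Dll4 with Gm14207 over 214 bases. The sources used here do not state whether counting used strand, so reads from these overlaps cannot be told apart.

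Library totals ran from 3414123 counts in wild-type male tumour 2 to 26174008 in wild-type female normal 1, and 3 counts corresponded to 0.127 to 0.873 CPM, the usual count unit relative to library size, here with TMM scaling. The presence of endothelium was checked on 32 other endothelial genes, among them Tie1, Tek, Erg and Plvap: all 32 were tested and none was at 0 in a whole group. Presence does not show that each of the 10 genes follows endothelium. Within groups, the median correlation with the 32 genes was 0.61 for Pecam1, 0.57 for Cdh5, 0.52 for Apln and 0.47 for Kdr, but 0.23 for Esm1, 0.20 for Dll4, 0.18 for Angpt2, 0.11 for Sox17, 0.04 for Vegfa and -0.03 for Aplnr. The endothelial label is therefore used for the last 6 as their known role, not as the source of their RNA here. In bulk tissue, fewer cells of a type and less RNA per cell cannot be told apart. Wild-type female normal colon stood apart from the other groups: its libraries were the lowest in the summed CPM of the 32 endothelial genes (234 to 297, against 421 to 757 in the other 18 libraries) and in 6 fibroblast genes (660 to 838 against 1127 or more). The share of counts on the ribosomal RNA gene Rn45s was also lowest there, at 3.05% ± 0.179 (SD, n = 3), against group means of 5.23% to 11.3% elsewhere. Every comparison below that uses this group carries these differences, and their part in it was not tested.

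Tumours and normal colon were compared in the 3 backgrounds. Apln and Esm1 were higher in tumours of wild-type males, knock-in males and wild-type females, while Vegfa, Kdr and Dll4 passed the threshold (adjusted p under 0.05 by edgeR's quasi-likelihood test over 15936 genes) in none. In wild-type males 5 of the 10 genes were higher in tumours and none lower, where 35.7% of all tested genes were called and 16.5% were called higher. In knock-in males 2 of the 10 were higher, where 20.4% of all genes were called and 10.4% were called higher. In wild-type females 7 of the 10 were higher, where 49.1% of all genes were called and 25% were called higher. Libraries of tumour and normal colon did not overlap for 5, 4 and 7 of the 10 genes in that order, against 52.4%, 33.6% and 58.4% of all tested genes. All were higher in tumours but 1 in wild-type females, Vegfa, which was lower. The median log2 fold change of the 10 genes was 0.65, 0.48 and 1.88 in that order, against medians under 0.01 over all tested genes.

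**Figure D1:**
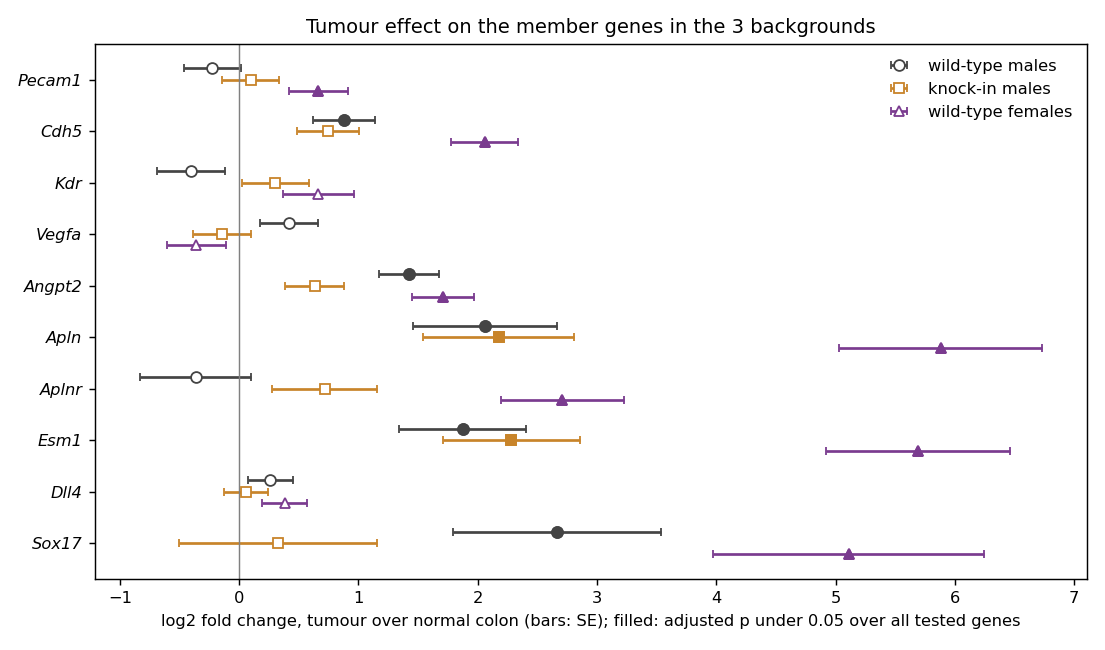
Log2 fold change of tumour over normal colon for the 10 genes (x axis, bars are SE from the fit) in wild-type males (circles), knock-in males (squares) and wild-type females (triangles), with filled symbols past the adjusted p of 0.05. Apln and Esm1 are filled in all 3 backgrounds, and Vegfa, Kdr and Dll4 in none.

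Apln, the gene of the apelin peptide, was measured at 3.64, 7.34 and 1.99 CPM in wild-type male normal colon and at 12.4, 32.01 and 11.5 CPM in the tumours. Knock-in male normal colon had 1.59, 2.41 and 0.951 CPM and the tumours 4.15, 9.11 and 9.59 CPM. Wild-type female tumours had 2.72, 16.8 and 21.5 CPM and the normal colon 0.169, 0.279 and 0.310 CPM, from 4, 2 and 2 counts. Tumour and normal libraries did not overlap in any of the 3 backgrounds, and wild-type male tumour 2, the shallowest library, was the highest of all. The log2 fold changes were 2.06 ± 0.60 (SE) in wild-type males and 2.18 ± 0.64 in knock-in males. With only 8 counts in the female normal group, summed counts gave a ratio of 67.2, with an exact 95% interval of 33.7 to 157 that covers counting error only. In wild-type males the call was lost without normal 1, normal 3 or tumour 2, at log2 fold changes of 1.91, 1.73 and 1.46. In knock-in males it was lost without normal 1, normal 3, tumour 2 or tumour 3, at 2.10, 1.91, 1.99 and 1.98.

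Esm1, which encodes endocan, a proteoglycan secreted by tip cells, had the same 4 highest groups as Apln. It stood at 1.75, 3.59 and 0.796 CPM in wild-type male normal colon and 7.13, 9.60 and 6.35 CPM in tumours, and at 1.59, 0.633 and 0.259 and 4.42, 2.60 and 4.99 CPM in knock-in males. In wild-type females the tumours had 3.67, 6.32 and 8.59 CPM and normal colon 2, 2 and 0 counts. No tumour library overlapped the normal libraries of its background. The log2 fold change was 1.87 ± 0.53 in wild-type males and 2.28 ± 0.57 in knock-in males, and the ratio of summed counts in females was 59.4, with a counting interval of 22.8 to 221 over 4 counts in normal colon. Without wild-type male normal 3 the call was lost at 1.52, and without knock-in male normal 3 at 1.88. The knock-in male call was also lost in a fit of the compared groups alone, at 2.27. Of all tested genes, 658 of 15936 were called higher in all 3 comparisons, and of the 32 endothelial identity genes 0 were. The 3 comparisons share no libraries.

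Angpt2, whose product antagonises Tie2 and loosens vessels for sprouting, was higher in tumours of both wild-type sexes. Wild-type male normal colon had 14.5, 15.8 and 8.16 CPM and tumours 30.3, 45.98 and 28.6 CPM, and wild-type female normal colon had 9.05, 8.92 and 7.28 CPM and tumours 31.8, 21.6 and 29.6 CPM. Knock-in males stood at 12.4, 9.05 and 17.5 CPM in normal colon and 17.6, 20.3 and 22.4 CPM in tumours, with no overlap but a smaller gap. The log2 fold changes were 1.42 ± 0.25 in wild-type males, 1.71 ± 0.26 in wild-type females and 0.63 ± 0.25 in knock-in males, the last not past the threshold. In wild-type males this was the one call of the 5 kept without each of the 6 libraries in turn. Tek, which encodes the Tie2 receptor, moved the other way in wild-type male tumours, at 7.18 ± 0.235 CPM (SD, n = 3) against 14.1 ± 2.13 (log2 -0.98 ± 0.21, edgeR adjusted p = 0.00136).

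Cdh5, which encodes VE-cadherin of the endothelial junction, was also higher in wild-type tumours of both sexes. It had 30.3, 42.5 and 20.99 CPM in wild-type male normal colon against 55.01, 76.2 and 43.3 CPM in tumours, and 7.36, 10.3 and 12.7 against 29.2, 45.03 and 49.3 CPM in wild-type females. Knock-in males had 25.8, 23.2 and 35.01 CPM in normal colon and 41.6, 55.02 and 43.8 CPM in tumours. The groups did not overlap in any background. The log2 fold changes were 0.88 ± 0.26, 2.06 ± 0.28 and 0.74 ± 0.26 in that order, the last not past the threshold. The wild-type male call was lost without normal 1, normal 3 or tumour 2, at 0.83, 0.66 and 0.65, and in a fit of the compared groups alone, at 0.86.

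Sox17 had the widest range of the 10 genes. Wild-type male tumours had 104, 141 and 138 CPM against 24.8, 30.3 and 4.28 CPM in normal colon, and wild-type female tumours had 42.1, 24.6 and 58.3 CPM against 1.14, 0.418 and 2.17 CPM. In knock-in males tumours had 76.7, 3.25 and 38.2 CPM and normal colon 30.2, 8.67 and 55.8 CPM, so these groups overlapped, and tumour 2 was lower than every other male library. The log2 fold changes were 2.67 ± 0.87, 5.11 ± 1.14 and 0.32 ± 0.83, with the first 2 past the threshold. In wild-type males the replicate numbers were taken to pair tumour and normal colon. With the replicate number as a block the Sox17 difference was 2.55 and no longer past the threshold, which left 4 called genes of the 10. That fit held 18 libraries, without knock-in female normal colon, and its block was shared by all groups. The parts of the block and of the omitted libraries in this loss were not separated. The Sox17 call in wild-type males was also lost without normal 1, normal 3, tumour 2 or tumour 3, at 2.83, 2.21, 2.59 and 2.60.

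**Figure D2:**
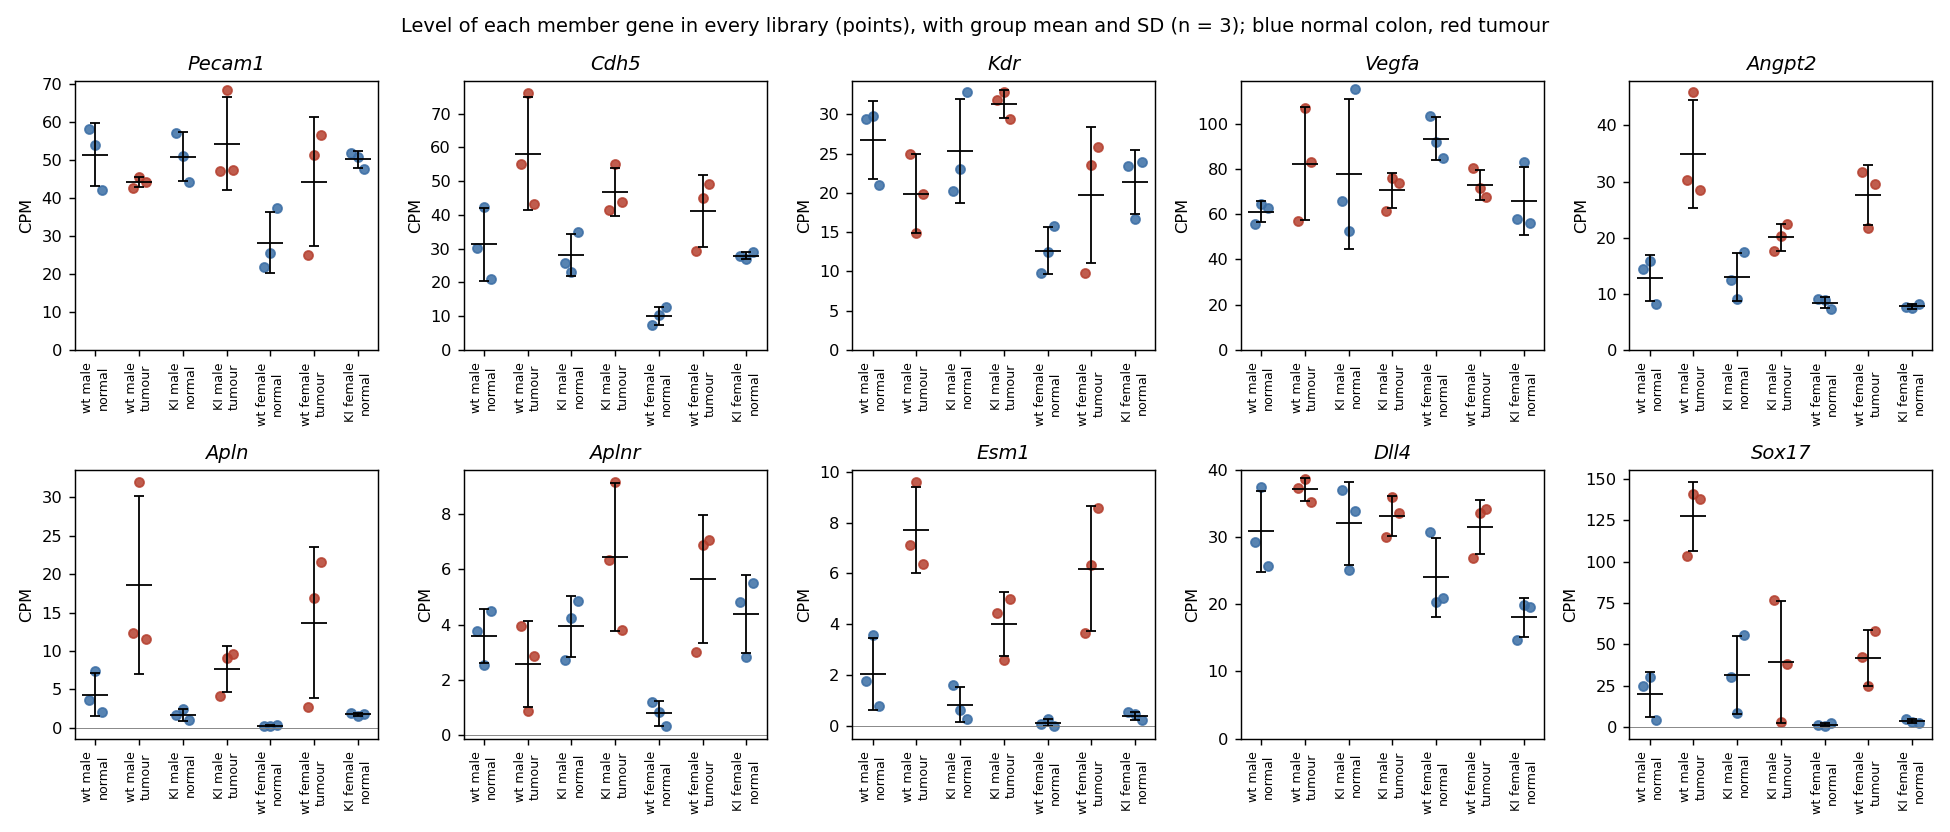
Level of each gene in CPM (y axes, each panel with its own scale) in the 7 groups (x axes); points are libraries, blue for normal colon and red for tumour, and black marks are the mean and SD of 3 libraries. Apln and Esm1 are higher in tumours of each background, Vegfa and Dll4 passed the threshold in no comparison, and wild-type female normal colon is the lowest group for 7 of the 10 genes.

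Vegfa and its receptor gene Kdr were called in none of the tumour comparisons. Vegfa had 55.7, 64.7 and 62.9 CPM in wild-type male normal colon and 56.96, 107 and 82.9 CPM in tumours, 65.6, 52.5 and 115 and 61.6, 75.9 and 74.00 CPM in knock-in males, and 104, 91.98 and 84.7 and 80.3, 71.4 and 67.4 CPM in wild-type females. Male groups overlapped, and in wild-type females all 3 tumours were below the normal libraries. The log2 fold changes were 0.42 ± 0.24, -0.14 ± 0.24 and -0.36 ± 0.24. Per kilobase of exon, Vegfa was the most abundant of the 10 genes in 6 of the 7 groups, at 14.3 CPM per kilobase in wild-type male normal colon. In wild-type male tumours it was second, at 19.2, after Sox17 at 26.7. Kdr, the main VEGF receptor of blood endothelium, had 29.4, 29.8 and 20.99 CPM in wild-type male normal colon, 24.99, 14.8 and 19.9 in the tumours, 20.3, 22.98 and 32.9 in knock-in male normal colon and 31.8, 32.8 and 29.4 in the tumours. Wild-type females had 9.76, 12.4 and 15.8 CPM in normal colon and 9.78, 23.5 and 25.8 CPM in tumours. The tumour log2 fold changes were -0.40 ± 0.29, 0.30 ± 0.28 and 0.66 ± 0.30, and all 3 pairs of groups overlapped.

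Dll4, the Notch ligand of tip cells, overlapped between tumours and normal colon in males of both genotypes. Its libraries had 29.3, 37.5 and 25.8 CPM in wild-type male normal colon, 37.4, 38.7 and 35.3 in the tumours, 37.1, 25.1 and 33.97 in knock-in male normal colon and 30.1, 36.03 and 33.6 in the tumours. Female libraries had 30.8, 20.3 and 20.9 CPM in wild-type normal colon, 26.9, 33.6 and 34.1 in tumours and 14.6, 19.9 and 19.6 in knock-in normal colon, the lowest group. Neither Dll4 nor Vegfa was called in any of the 12 comparisons and interactions by edgeR, with an unadjusted p under 0.05 in 2 of them for Dll4 and 3 for Vegfa.

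Pecam1 (CD31) and the apelin receptor gene Aplnr were called in tumours of wild-type females alone. Pecam1 had 24.99, 51.4 and 56.7 CPM in these tumours against 21.9, 25.6 and 37.3 CPM in normal colon, with overlap, at a log2 fold change of 0.66 ± 0.24. The call was lost without normal 1, normal 2, tumour 2 or tumour 3 (0.50, 0.60, 0.55 and 0.45). It was also lost with the compared groups alone (0.67), with the replicate block (0.63) and with a covariate for the 3 libraries whose numbers start at 152 (0.36). In males Pecam1 was at 58.2, 53.9 and 42.1 CPM in wild-type normal colon, 42.7, 45.4 and 44.3 in tumours, 57.2, 51.1 and 44.3 in knock-in normal colon and 47.2, 68.4 and 47.3 in tumours. Aplnr had 2.99, 6.90 and 7.07 CPM in wild-type female tumours and 1.18, 0.836 and 0.310 CPM in normal colon, which did not overlap (log2 2.71 ± 0.52). Wild-type male tumours had 3.96, 0.873 and 2.86 CPM, the second from 3 counts, against 3.78, 2.55 and 4.48 CPM in normal colon, and knock-in males had 6.33, 9.17 and 3.82 against 2.71, 4.24 and 4.84 CPM. In males the tumour difference of Aplnr was -0.36 ± 0.47 and 0.72 ± 0.44, neither past the threshold, beside the higher Apln. The difference between the 2 genes was not tested.

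The rest of the endothelial genes gave the setting for these differences. Of the 32 endothelial identity genes, 1 was higher and 5 were lower in wild-type male tumours, where 35.7% of all genes were called, with a median log2 fold change of -0.06 against 0.01 over all genes. Ecscr, an endothelial surface protein gene, was the higher one (62.3 ± 4.19 against 14.4 ± 7.19 CPM, log2 2.10 ± 0.35, edgeR adjusted p = 2.85e-04). She (-1.39 ± 0.28, adjusted p = 0.00110) and Calcrl, a receptor subunit for adrenomedullin (-1.36 ± 0.24, adjusted p = 3.66e-04), were among the lower ones. In knock-in male tumours 1 of the 32 was higher, Adgrl4 (listed as Eltd1, 0.87 ± 0.30, adjusted p = 0.0492), and none was lower, where 20.4% of all genes were called, with a median of 0.18. That call was lost without any of 5 of the 6 libraries, all but tumour 3. In wild-type female tumours 22 were higher and 2 lower, where 49.1% of all genes were called, with a median of 1.09. Summed over the 32 genes, wild-type male libraries had 486 to 688 CPM in normal colon and 560 to 698 in tumours, knock-in male libraries 536 to 626 and 649 to 757, and wild-type female libraries 234 to 297 and 421 to 659.

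**Figure D3:**
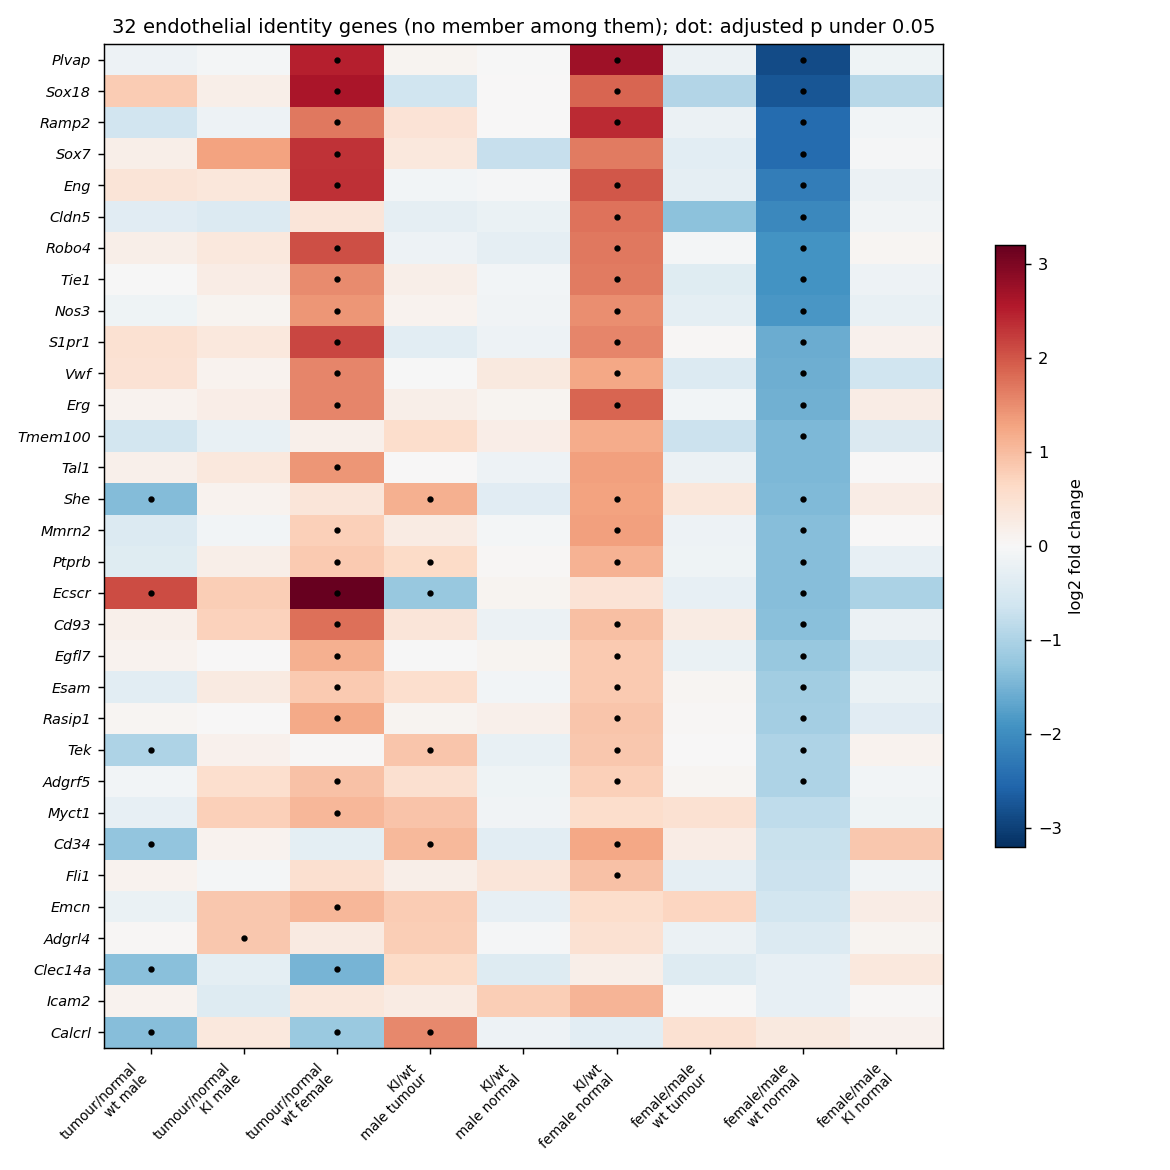
Log2 fold change (colour) of 32 endothelial identity genes (rows) in 9 comparisons (columns), with dots at an adjusted p under 0.05; wt is wild-type and KI the App NL-G-F knock-in. The 3 columns with many dots all contain wild-type female normal colon: 22 higher and 2 lower for its tumours, 22 higher for knock-in over wild-type, and 23 lower for female over male.

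The levels of the 10 genes were also set against this endothelial sum. Per 1000 CPM of the 32 genes, Pecam1 had 78.3 to 90.9 in wild-type male normal colon and 65.00 to 76.2 in tumours, and 93.4 to 126 and 59.4 to 87.4 in wild-type females. Angpt2 had 16.8 to 22.95 and 47.2 to 65.8 in wild-type males, without overlap. It had 16.9 to 27.9 and 24.5 to 34.5 in knock-in males, and 24.5 to 38.6 and 36.8 to 75.5 in wild-type females, both with overlap. Apln had 4.09 to 10.7 and 19.05 to 45.8 in wild-type males, 1.52 to 4.48 and 5.79 to 14.8 in knock-in males, and 0.722 to 1.07 and 6.45 to 32.7 in wild-type females. For Apln, tumours were above normal colon in each background on this scale. For Sox17 the ratio was 8.80 to 44.1 in wild-type male normal colon and 185 to 228 in tumours. It was 16.2 to 89.2 and 4.30 to 107 in knock-in males, with overlap, and 1.61 to 7.31 and 41.8 to 100 in wild-type females. Vegfa had 285 to 442 in wild-type female normal colon, above 86.9 to 129 in wild-type male and 104 to 150 in knock-in female normal colon.

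Normal colon of wild-type females was then compared with that of wild-type males and of knock-in females. Of the 10 genes, 7 were lower in wild-type females than in wild-type males, all but Vegfa, Angpt2 and Dll4, where 15.9% of all genes were called and 10.2% were called lower. Groups did not overlap for 8 of the 10, against 34.2% of all tested genes. Of these 8, 7 were lower in females and Vegfa was higher (0.62 ± 0.24, not past the threshold). Cdh5 differed by -1.66 ± 0.28, Aplnr by -2.05 ± 0.51, Kdr by -1.10 ± 0.29 and Pecam1 by -0.88 ± 0.24 on the log2 scale. For Apln the male over female ratio of summed counts was 20.4 (counting interval 10.1 to 47.9), and for Esm1 it was 19.4 (7.35 to 72.9). Sox17 differed by -4.05 ± 1.13. The Sox17, Pecam1 and Kdr calls were each lost without female normal 1, female normal 2, male normal 1 or male normal 2, at values of -3.98 to -3.65 for Sox17, -0.85 to -0.71 for Pecam1 and -1.10 to -0.93 for Kdr. Of the 32 identity genes 23 were lower and none higher, with a median of -1.36: Plvap, a protein gene of fenestrated capillaries, had 6.23 ± 0.338 against 45.05 ± 9.94 CPM (log2 -2.85 ± 0.29, edgeR adjusted p = 1.21e-05). Beside these, 3 of 6 fibroblast genes, 4 of 9 tested pericyte genes and 1 of 6 smooth muscle genes were lower and none higher, and the summed epithelial genes stood at 8983 to 9990 CPM against 7279 to 9652.

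Knock-in female normal colon had higher endothelial levels than wild-type female normal colon. Apln, Aplnr, Cdh5 and Pecam1 were higher, 4 of the 10, where 16% of all genes were called and 8.97% were called higher. Groups did not overlap for 8 of the 10, 6 higher and 2 lower in knock-in, against 37.8% of all tested genes. The 2 lower ones were Vegfa (-0.51 ± 0.24) and Dll4 (-0.43 ± 0.19), neither past the threshold. Cdh5 stood at 27.9, 26.98 and 28.9 CPM against 7.36, 10.3 and 12.7 (log2 1.499 ± 0.28), and Aplnr at 4.82, 2.81 and 5.51 against 1.18, 0.836 and 0.310 (2.35 ± 0.51). Both groups were without overlap for these genes. Pecam1 had 51.9, 50.9 and 47.7 CPM (0.84 ± 0.24), a call lost without wild-type normal 1 or 2 or knock-in normal 1 or a (0.67, 0.78, 0.82 and 0.83). Apln had 1.96, 1.57 and 1.76 CPM, with a ratio of summed counts of 8.42 (4.05 to 20.3), and its call was lost without any 1 of the 6 libraries. Angpt2 was not called, at 7.62, 7.42 and 8.19 CPM in knock-in and 9.05, 8.92 and 7.28 CPM in wild-type females (-0.13 ± 0.26). The knock-in libraries had 23.4, 16.6 and 23.96 CPM of Kdr, 57.98, 83.1 and 56.3 of Vegfa, 0.536, 0.450 and 0.230 of Esm1 and 4.76, 3.04 and 2.53 of Sox17, none past the threshold. Of the identity genes 22 were higher and none lower (median 1.20), a count of 13 without wild-type normal 1. Here again fibroblast genes (3 of 6 higher), smooth muscle genes (2 of 6) and tested pericyte genes (3 of 9) moved with them.

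Genotype made no called difference to the 10 genes in male normal colon. There edgeR called 0 of the 10, with 2 at an unadjusted p under 0.05 and 0 by DESeq2, where 0.0126% of all genes were called. In tumours of males, knock-in was compared with wild-type, and Angpt2 was lower in knock-in tumours (log2 -0.78 ± 0.25), 1 of the 10 where 14.5% of all genes were called and 5.23% were called lower. This call was lost without each of the 6 libraries in turn, at -0.92 to -0.55, with the replicate number as a block, at -0.82, and with the late library numbers as a covariate, at -0.77. Groups did not overlap for 6 of the 10 genes, against 36.4% of all tested genes. Beside Angpt2, these were Sox17, Apln and Esm1, with log2 differences of -1.69 ± 0.84, -1.26 ± 0.59 and -0.93 ± 0.51, and Kdr and Pecam1, with 0.63 ± 0.29 and 0.30 ± 0.24, none of the 5 past the threshold. Of the identity genes 5 were higher in knock-in tumours and 1 lower. Calcrl (32.97 ± 10.2 against 11.3 ± 1.60 CPM, 1.54 ± 0.24, edgeR adjusted p = 0.00350) and She were among the higher, and Ecscr was the lower one (-1.21 ± 0.34, adjusted p = 0.0298). That count of 6 was 2 without wild-type tumour 1, 1 without wild-type tumour 3, 3 without knock-in tumour 1 and 1 without knock-in tumour 2. The genotype by tumour interaction, which tests whether the tumour difference itself differed between genotypes, called 0 of the 10 by edgeR and 0 by DESeq2, with 1 at an unadjusted p under 0.05, where 1.51% of all genes were called. Those 240 calls over all genes depended on the fit. They fell to 0 with the replicate block, to 0 in the same 18 libraries without it, to 1 with the compared groups alone and to 2 with the late library numbers as a covariate. There were 95 without a filter on low counts, 185 with DESeq2 size factors, 243 with library totals and 1331 with the DESeq2 test.

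The sexes were also compared in wild-type tumours and in knock-in normal colon. In wild-type tumours 0 of the 10 genes were called by edgeR and 0 by DESeq2, with 1 at an unadjusted p under 0.05 by edgeR. Over all genes edgeR called 137, or 0.86%, and DESeq2 called 841. Groups did not overlap for 2 of the 10 genes, against 31.2% of all tested genes. These were Sox17, with the largest difference of the 10 (-1.61 ± 0.84), and Dll4 (-0.23 ± 0.19), neither past the threshold. Cdh5 was 41.2 ± 10.6 CPM in females and 58.2 ± 16.7 in males, with overlap. In knock-in normal colon edgeR called 0 and DESeq2 2 of the 10, with 3 at an unadjusted p under 0.05 by edgeR. Over all genes edgeR called 93, or 0.584%, and DESeq2 called 582. Groups did not overlap for 3 of the 10, against 19.7% of all tested genes: Sox17, Dll4 and Angpt2, with log2 differences of -3.16 ± 0.96, -0.83 ± 0.19 and -0.74 ± 0.26. The sex by tumour interaction called Aplnr, 1 of the 10 where 1.12% of all genes were called. This call was lost with the replicate block, with the compared groups alone, with the late library numbers as a covariate and without any of 10 of the 12 libraries. The sex by genotype interaction in normal colon called Apln and Cdh5, 2 of the 10 where 2.54% were called. Of the 12 libraries, leaving out any of 11 ended the Apln call and any of 6 the Cdh5 call. Both interactions contain wild-type female normal colon.

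Other vascular gene lists were fitted in the same way. Over all tested genes, 35.7%, 20.4% and 49.1% were called in wild-type male, knock-in male and wild-type female tumours, and the counts of these lists are to be read against those shares. Of 13 further VEGF and angiopoietin genes, 1 was higher and 2 lower in wild-type male tumours, 0 and 1 in knock-in male tumours, and 5 and 2 in wild-type female tumours. Pgf, the placental growth factor gene, was higher in wild-type male (2.56 ± 0.57, edgeR adjusted p = 0.00221) and female tumours (4.35 ± 0.70, 5.77e-05). Nrp2, a co-receptor gene, was lower in all 3 (-1.31 ± 0.19, -0.81 ± 0.18 and -0.64 ± 0.18). Of 17 tip cell and vessel basement membrane genes 3, 3 and 11 were higher and 3, 2 and 1 lower, in the same order of backgrounds, so that 6 of 17 were called in wild-type males, near the share of all genes. Plaur, the urokinase receptor gene, was higher in all 3 (1.97 ± 0.44, 1.37 ± 0.43 and 2.98 ± 0.46, adjusted p = 0.00256, 0.0339 and 6.00e-05), and the netrin receptor gene Unc5b was lower in all 3 (-0.66 ± 0.18, -0.53 ± 0.17 and -1.72 ± 0.18).

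A list of 8 genes held inhibitors of vessel growth and Vash2, a relative of the inhibitor gene Vash1. Of these, 3, 4 and 6 were higher and 1, 0 and 1 lower in tumours of wild-type males, knock-in males and wild-type females. The medians were 0.72, 0.83 and 2.34. Vash1 was higher in wild-type male (1.45 ± 0.28, edgeR adjusted p = 7.32e-04) and female tumours (3.21 ± 0.31, 4.44e-07). Vash2, which is in these counts but is not taken here as an inhibitor, was higher in all 3 backgrounds. Its log2 fold changes were 2.07 ± 0.42, 1.62 ± 0.41 and 3.71 ± 0.47 (edgeR adjusted p = 0.00108, 0.0131 and 7.28e-06). Its levels were 6.78 ± 2.72 and 29.1 ± 6.60 CPM in wild-type male normal colon and tumours. Of 15 Notch and arterial genes 4 were higher and 2 lower in wild-type male tumours, and 7 and 2 in wild-type females. In knock-in males 0 were called either way by edgeR, with 2 at an unadjusted p under 0.05. The DESeq2 count was not taken for this list. The Notch target Hey1 (1.55 ± 0.35, adjusted p = 0.00230) and the ligand gene Jag2 (1.44 ± 0.38, 0.00799) were higher in wild-type male tumours while Dll4 was not called. Of 12 hypoxia genes 3 were higher and 2 lower in wild-type male tumours, and 1 and 5 in wild-type females, while Vegfa was not called. In knock-in males 0 were called either way by edgeR, with 0 at an unadjusted p under 0.05. The DESeq2 count was not taken for this list either.

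Cells around and beside the vessels were followed with the same fit. Over all tested genes, 35.7%, 20.4% and 49.1% were called in wild-type male, knock-in male and wild-type female tumours. Near these shares were 2 of 6 lymphatic genes in wild-type males and 4 of 9 pericyte genes in wild-type females. Of 9 tested pericyte genes 5 were lower in wild-type male tumours and none higher, with Abcc9 at -1.73 ± 0.23 and Cspg4 at -2.03 ± 0.37, and in knock-in males 1 was higher and 2 lower. In wild-type females 2 were higher, Notch3 (1.49 ± 0.29) and Pdgfrb (1.04 ± 0.21), and 2 lower, with a median of 0.44. All 6 smooth muscle genes were lower in tumours of all 3 backgrounds, with medians of -4.31, -2.75 and -4.30. Of 6 tested lymphatic genes 1 was higher and 1 lower in wild-type males and 2 and 2 in wild-type females. The higher one in males was Prox1, a lymphatic factor also known from intestinal epithelium, at 535 ± 67.6 against 123 ± 83.5 CPM (log2 2.12 ± 0.67, edgeR adjusted p = 0.0232), while the list's other members included lower Reln. The summed colon epithelium genes were 6422 to 6813 CPM in wild-type male tumours and 7279 to 9652 in normal colon, 6569 to 7948 and 7145 to 7735 in knock-in males, and 5429 to 6496 and 8983 to 9990 in wild-type females. The part of these shifts in the differences of the 10 genes was not tested.

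Genes with the most similar pattern were found by the Pearson correlation of log2 CPM over the 21 libraries, given here as a description. These libraries share the split into tumour and normal colon and the low wild-type female normal group, so the correlation after removal of group means is given beside it. Pecam1 was most like Tie1 (r = 0.90, 0.88 within groups), Mmrn2 and Ramp2, all endothelial identity genes, and Kdr was most like Shank3, Mmrn2 and Ptprb. Vegfa was most like the hypoxia gene Egln3 (r = 0.77, 0.70 within groups). Dll4 was most like Foxa1 and Foxa3, transcription factor genes of endoderm (r = 0.90 and 0.87, 0.81 and 0.73 within groups), and Wtip.

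Sox17 was most like Atp10a, Slc7a8 and the T-box factor gene Tbx3 (r = 0.97 for each, 0.91, 0.97 and 0.94 within groups). Its median correlation with the 32 endothelial identity genes was 0.50, and 0.11 within groups, where Pecam1 had 0.74 and 0.61. With Pecam1 itself the correlation of Sox17 was 0.32, and -0.06 within groups. Knock-in male tumour 2, with the lowest Sox17 of the tumours at 3.25 CPM, had 68.4 CPM of Pecam1, the highest value of all 21 libraries. The same library stood apart in the sum of 6 genes of megakaryocytes and platelets, cells that also carry Pecam1, at 443 CPM against 8.54 to 79.9 in the other 20. Of that sum 422 CPM were Ppbp and 11.3 Gp1bb, both the highest of the 21, while Pf4 (7.69) and Itga2b (1.83) lay within the range of the others and Gp9 (0.118) and Treml1 (0.0592) were near 0. The part of this in the Pecam1 level was not tested. Angpt2, Apln and Esm1 were most like genes outside the endothelial list, Slc16a3, Fkbp1a and Tead1 (r = 0.97, 0.95 and 0.97, falling to 0.85, 0.66 and 0.74 within groups). Apln and Esm1 were correlated with each other at 0.93, and at 0.55 within groups. Cdh5 was most like Tgfbi (0.96, 0.77 within groups) and Aplnr like Pkd2 (0.83, 0.44).

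**Figure D4:**
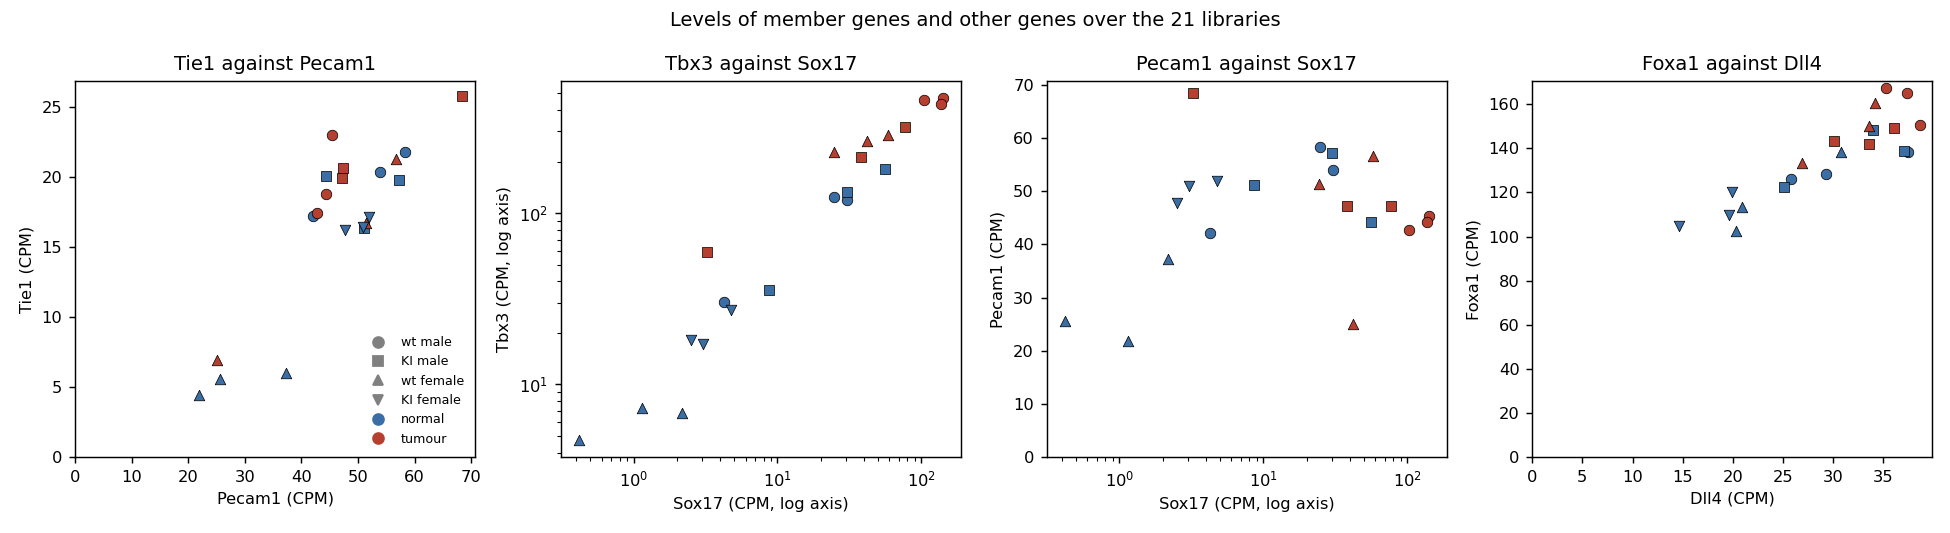
Levels in CPM of a pair of genes in each panel over the 21 libraries (blue normal colon, red tumour; circles wild-type male, squares knock-in male, triangles up wild-type female, triangles down knock-in female), with log axes where the label says so. Tie1 follows Pecam1, Tbx3 follows Sox17, Foxa1 follows Dll4, and Pecam1 spans similar values at low and high Sox17. The highest Pecam1 library had 3.25 CPM of Sox17 and the highest sum of 6 platelet genes (443 CPM, of which Ppbp alone made 422).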

How the data were processed

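Total RNA of 21 mouse colon samples in 7 groups of 3 was freed of ribosomal RNA, copied from random hexamer primers and read on an Illumina NovaSeq instrument, per the labels' protocols. The deposited values used are raw counts per gene for 24062 genes, which the authors made with featureCounts after Trimmomatic and HISAT2 on mm10, per the submitters' processing notes. Versions, annotation and strand setting are not given in the sources used here. The authors' table of DESeq2 results was not used. No per-sample column was left out; 2 columns of knock-in female normal colon carry the same name and were used as unnumbered libraries a and b.

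Groups were compared by the two-sided quasi-likelihood F test of edgeR with TMM scaling, filterByExpr by group (15936 genes kept), robust dispersions and 1 coefficient per group over all 21 libraries. There were 9 pairwise comparisons and 3 interactions, each adjusted by Benjamini-Hochberg over all tested genes at a threshold of 0.05. SE values were derived from the fold change and the F statistic. Log2 CPM for correlations used a prior count of 2. Totals of 3414123 to 26174008 counts set the precision, and counting intervals are exact and cover counting error only. Versions were Python 3.11.15, DESeq2 1.42.0, edgeR 4.0.16 and R 4.3.3. Gene models are GENCODE on GRCm38, and promoters RefSeq on GRCm38.p6.

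The members and the gene lists were chosen with earlier results of these data known. Beside the 10 members, the rule named, from each of 8 vascular lists and in each comparison, up to 2 higher and 2 lower genes past the threshold with a mean of at least 50 counts in a group, and for each member the 3 genes of most similar pattern. The text gives a part of these. Replicate numbers were taken to pair tumour and normal colon of wild-type males, and libraries of no other comparison. Same-numbered libraries there had correlated deviations (0.17, 0.17 and 0.21). Groups of different mice also gave such values, with 0.46 for number 1 of knock-in and wild-type male normal colon. Number 2 of wild-type female and male normal colon had 0.17, and the other numbers of these comparisons gave negative values. The pairing is therefore an assumption. Alternatives were DESeq2 size factors, library totals, no low-count filter, the DESeq2 test, a fit of the compared groups alone, a covariate for the 3 libraries with numbers from 152, the replicate block, and leaving out each library. No set test or test on the members alone was made.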

Additional observations from a re-analysis of the deposited data

Results flagged for a closer look

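Differences in response between sexes or genotypes were picked out by the interaction terms of the edgeR fit. For the knock-in difference in normal colon, females minus males, the term was 4.31 for Apln and 1.66 for Cdh5 on the log2 scale. Signs differed between the sexes. Apln was at 2.94 ± 0.91 in females and -1.37 ± 0.64 in males, and Cdh5 at 1.499 ± 0.28 and -0.16 ± 0.26. Neither male value passed the threshold. The Apln value rests on 8 counts in wild-type female normal colon, and its call was lost in 12 of 18 alternative fits (adjusted p 0.00156 to 0.161). The Cdh5 call was lost in 6 of 18, each of them without 1 library. The tumour difference of Aplnr was 2.71 ± 0.52 in wild-type females and -0.36 ± 0.47 in wild-type males, a term of 3.07. This interaction call was lost in 13 of 19 alternative fits (adjusted p 0.00190 to 0.130), with the replicate block and the compared groups alone among them.

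The same terms picked out endothelial genes outside the 10. For the tumour difference, wild-type females minus wild-type males, the term was 2.66 for Plvap and 2.29 for Ramp2. Ramp2 had 3.96, 3.78 and 3.87 CPM in wild-type male tumours against 6.61, 6.81 and 4.18 in normal colon. Wild-type females had 2.44, 3.74 and 4.02 CPM in tumours against 0.719, 0.836 and 1.86. Plvap passed the threshold in all 19 alternative fits, while Ramp2 lost it in 5. The knock-in difference in normal colon was larger in females than in males for Plvap, by 2.71, and for Ramp2, by 2.38. Both passed the threshold in all 18 alternative fits of that term. The sex by tumour terms and the sex by genotype terms share the libraries of wild-type female and wild-type male normal colon. For Calcrl the term for the tumour difference in males, knock-in minus wild-type, was 1.69. Its tumour difference was -1.36 ± 0.24 in wild-type males, called lower, and was not called in knock-in males. The interaction call was lost in 10 of 19 alternative fits (adjusted p 0.00129 to 0.128 over the 19). The replicate block, the compared groups alone and the late library numbers were among them.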

How the results depend on the processing

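The 29 called fold changes of the 10 genes were recomputed in the alternative fits, which gave 388 values in all. Of these values 301 kept direction and threshold, 87 kept the direction without passing it, and 0 reversed. The fits share most of their libraries, so these values are not independent checks. Leaving out each library in turn, the number of the 10 genes called was 1 to 5 for wild-type male tumours, 1 to 2 for knock-in male tumours, 6 to 8 for wild-type female tumours, 0 to 1 between male tumours, 2 to 3 between female normal groups, 4 to 8 between wild-type normal groups, 0 to 1 between knock-in normal groups, 0 to 4 for sex by tumour and 0 to 2 for sex by genotype. For the 32 identity genes, the ranges were 0 to 1 in knock-in male tumours, 1 to 8 between male tumours and 13 to 21 between female normal groups. Where these counts fell, an arm of 2 libraries is assumed to vary like the other groups. The sex by tumour count for the 10 genes was 2 with library totals, 3 with DESeq2, and 0 with the compared groups alone, the replicate block or the late library numbers as covariate. Over all genes, library totals gave 311 calls of this term and DESeq2 572, in place of 179. The sex by genotype count was 1 without a filter on low counts. With the compared groups alone, knock-in male tumours gave 1 of the 10 genes. Female against male wild-type tumours also gave 1, where that fit called 1166 of all genes in place of 137. DESeq2 gave 2 between knock-in normal groups, where it called 582 of all genes in place of 93. The identity count in knock-in male tumours was 0 with DESeq2 size factors, no filter, the compared groups alone, the replicate block or the late covariate, and the identity count between wild-type tumours was 1 with the compared groups alone. The cause of these changes was not tested. With the replicate block, the counts of the 10 genes were 6 in wild-type female tumours, 4 in those of wild-type males, 2 in those of knock-in males and 0 between male tumours. Pairing by number was assumed in wild-type males only, and elsewhere the libraries share only a number. Library totals moved fold changes by up to 0.14 (wild-type female tumours), and the share of higher calls from 51.0% to 62.1% there, from 56.2% to 72.8% between female normal groups and from 36.1% to 21.4% between wild-type normal groups. The compared groups alone gave 724 calls in place of 3246 in knock-in male tumours, 30.5% of them higher in place of 51.0%.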
